A study of Mus musculus with 30 samples.

Results

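Among the 57133 genes counted in this mouse kidney RNA-seq series, 38 genes of the cell cycle and of DNA replication were followed across all 8 groups of samples. They were chosen by name, as the genes whose Ensembl identifiers pair with a list of 38 symbols, and every one was found and passed the low-count filter in every fit. The list holds 15 genes of the G1/S transition and replication (Mcm2 to Mcm7, Pcna, Ccnd1, Ccne1, Ccne2, Cdc6, Cdt1, E2f1, Rrm2 and Tyms) and 23 genes of G2 and mitosis (Mki67, Top2a, Cdk1, Ccna2, Ccnb1, Ccnb2, Birc5, Aurka, Aurkb, Bub1, Bub1b, Plk1, Cenpe, Cenpf, Cdc20, Ube2c, Tpx2, Kif11, Kif20a, Kif23, Nusap1, Prc1 and Racgap1), which are described apart below.

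The study sequenced poly-A RNA from whole mouse kidney in 30 libraries, and its title asks whether Gsta2, a gene biased to females, changes the response of male proximal tubule to ischemia-reperfusion injury. The animals were wildtype (WT) or carried a transgene labelled Gsta2-H2BeGFP (TG). With no surgery there were 3 male and 3 female libraries of each genotype; after nephrectomy (NX) alone there were 3 libraries of males of each genotype, and 4 hours after nephrectomy with ischemia-reperfusion injury (IRI) there were 6 of each. The age and strain of the mice, the promoter that drives the transgene, the time of sampling after NX alone and whether each library came from its own animal are not given in the sources used here, so p-values here speak of the spread from library to library alone. The libraries held 49040915 to 66446450 counts without surgery and 59574069 to 91354407 counts after surgery. EGFP reads were at 0 in every WT library but the one labelled WT IRI replicate 1, which held 206, against 86 to 1294 in the TG libraries, so the counts and the main values that use that library are also given without it. Summed markers of fat cells stood at 710.3 counts per 1000000 (CPM) in the unnumbered WT NX library against 15.3 and 18.1 in the other WT NX libraries, and were also high in TG male replicate 1 (372.9 CPM) and WT female replicate 1 (388.2 CPM) without surgery.

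A cell that enters the cycle passes from G1 into S phase when cyclin D and cyclin E kinases release the E2F factors, which switch on the genes that load the Mcm helicase on origins and make nucleotides for new DNA. Genes for the spindle, the kinetochore and cytokinesis are held down in resting cells by the DREAM complex and switched on in G2 by MuvB with B-Myb and FoxM1, often through a promoter element called the CHR together with CCAAT boxes. The adult kidney divides little, and its tubule cells are known to re-enter the cycle in the days after injury.

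RefSeq promoter windows (mouse GRCm38.p6, which is not the GRCm39 build of the count tables) were found for 31 of the 38 genes. The 6 windows that follow run from 250 bases before the start of the gene to 30 bases into it, on the strand of the gene and 5′ to 3′. They are shown for 4 G2/M genes and 2 replication genes whose counts moved after IRI or between the sexes, or which represent the helicase. Capitals mark matches, on either strand, to the CHR (TTTGAA), to CCAAT, or to E2F words (TTTGGCGC, TTTCCCGC, TTTCGCGC or TTTGCCGC).
Kif23, chr9:61946770-61947049, minus strand: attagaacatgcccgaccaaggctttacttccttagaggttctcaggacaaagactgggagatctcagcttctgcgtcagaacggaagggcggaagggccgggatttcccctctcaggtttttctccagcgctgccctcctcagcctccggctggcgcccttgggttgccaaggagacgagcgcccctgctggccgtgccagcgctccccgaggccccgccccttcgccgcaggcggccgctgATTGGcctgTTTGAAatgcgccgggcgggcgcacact
Cdc20, chr4:118437314-118437593, minus strand: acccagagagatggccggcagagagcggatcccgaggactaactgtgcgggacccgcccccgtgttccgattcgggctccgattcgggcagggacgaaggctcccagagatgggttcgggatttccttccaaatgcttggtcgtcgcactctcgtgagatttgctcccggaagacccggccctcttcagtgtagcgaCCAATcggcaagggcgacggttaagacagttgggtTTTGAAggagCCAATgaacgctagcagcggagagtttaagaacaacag
Kif11, chr19:37376132-37376411, plus strand: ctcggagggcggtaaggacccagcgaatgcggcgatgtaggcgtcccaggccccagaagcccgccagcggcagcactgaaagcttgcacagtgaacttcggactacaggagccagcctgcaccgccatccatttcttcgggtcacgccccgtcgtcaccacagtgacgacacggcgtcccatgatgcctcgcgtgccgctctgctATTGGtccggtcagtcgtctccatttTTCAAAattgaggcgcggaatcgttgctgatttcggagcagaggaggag
Ube2c, chr2:164769679-164769958, plus strand: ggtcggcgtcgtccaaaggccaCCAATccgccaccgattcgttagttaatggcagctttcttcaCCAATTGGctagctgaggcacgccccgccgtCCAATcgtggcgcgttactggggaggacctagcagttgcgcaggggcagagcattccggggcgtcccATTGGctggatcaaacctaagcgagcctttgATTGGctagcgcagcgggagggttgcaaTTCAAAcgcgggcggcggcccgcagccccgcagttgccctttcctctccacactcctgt
Cdc6, chr11:98907901-98908180, plus strand: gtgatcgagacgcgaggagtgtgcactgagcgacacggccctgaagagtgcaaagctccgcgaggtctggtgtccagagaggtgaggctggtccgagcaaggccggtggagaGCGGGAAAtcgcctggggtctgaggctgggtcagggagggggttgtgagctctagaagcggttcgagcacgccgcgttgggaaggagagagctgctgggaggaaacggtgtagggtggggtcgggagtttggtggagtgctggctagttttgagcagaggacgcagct
Mcm7, chr5:138171854-138172133, minus strand: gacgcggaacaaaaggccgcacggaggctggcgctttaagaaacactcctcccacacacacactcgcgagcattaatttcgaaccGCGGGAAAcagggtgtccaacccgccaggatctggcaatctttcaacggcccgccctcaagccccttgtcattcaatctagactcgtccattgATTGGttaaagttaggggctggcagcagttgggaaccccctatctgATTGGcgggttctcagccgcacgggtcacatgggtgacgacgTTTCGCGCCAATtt
In the first 4 of these windows a CHR lies near the start with a CCAAT box close before it: at bases 2 to 7 in Kif23, -18 to -13 in Cdc20, -19 to -14 in Kif11 and -29 to -24 in Ube2c, counting the first base of the gene as 0. Cdc6 has an E2F word at -138 to -131, and Mcm7 has E2F words at -165 to -158 and 16 to 23, the latter overlapping a CCAAT match.

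The same words were counted over whole windows of 250 bases before and 50 after the start. The CHR was in 15 of 20 G2/M windows (75.0%) and 1 of 13 G1/S windows (7.69%), against 17.9% of all 32851 mouse windows. The E2F words were in 6 of 13 G1/S windows (46.2%) and 1 of 20 G2/M windows (5.0%), against 2.26% of all. CCAAT was common throughout, in 18 of 20 G2/M windows (90.0%), 8 of 13 G1/S windows (61.5%) and 37.4% of all. The AP-1 word TGANTCA, held by 7.81% of all windows, was in none of either list, and the CRE word TGACGTCA, in 1.79% of all windows, was in 1 window of each list. E2F words overlapped each other in Mcm5 and Mcm6. These counts describe letters in the reference and carry no measurement of binding.

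Levels of different genes were compared as CPM per kilobase of exon, as the median over the 8 groups. The 12 highest of the 38 were all G1/S and replication genes, led by cyclin D1 (Ccnd1) at 42.97 CPM per kb, the sliding clamp Pcna at 10.6, and the helicase subunits Mcm6 at 4.44 and Mcm7 at 3.93. Among the G2/M genes, Cdc20, which activates the anaphase-promoting complex, was highest at 1.27 CPM per kb. The median level was 1.71 CPM per kb for the G1/S list and 0.385 for the G2/M list. Lowest of all 38 was Cdc6, a helicase loader, at 0.116, just below the kinetochore protein Cenpf at 0.122. In bulk kidney RNA, fewer cells of a type and less RNA per cell cannot be told apart, which holds for every level given here.

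Summed over the 23 genes, G2/M expression was 32.95 to 57.5 CPM in the 3 WT NX libraries and 41.1 to 48.1 CPM in the 3 TG NX libraries. After IRI it was 54.65 to 84.5 CPM in WT and 51.4 to 77.0 CPM in TG. Every TG IRI library thus lay above every TG NX library, while the ranges of the WT groups overlapped. Without surgery, on a table scaled apart and with no test between the tables, the sums were 35.1 to 54.4 CPM in WT males, 47.1 to 76.9 in TG males, 35.9 to 55.5 in WT females and 30.5 to 39.9 in TG females.

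The G1/S and replication sum, taken without Ccnd1 because Ccnd1 alone exceeds all the others, moved in a narrower band. It was 108.9 to 116.3 CPM in WT NX, 114.7 to 120.2 in TG NX, 124.8 to 143.0 in WT IRI and 98.3 to 151.2 in TG IRI. All 6 WT IRI libraries lay above all WT NX libraries, and the TG IRI libraries spread to both sides of the TG NX libraries. This spread rests in part on 1 gene, Mcm6, which ran from 3.26 to 33.7 CPM within TG IRI. TG IRI replicate 2 had both the lowest Mcm6 and the lowest sum. The sums were not tested between genotypes, so this contrast shows no genotype difference. The no-surgery libraries lay between 119.9 and 145.2 CPM in all 4 groups.

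**Figure D1:**
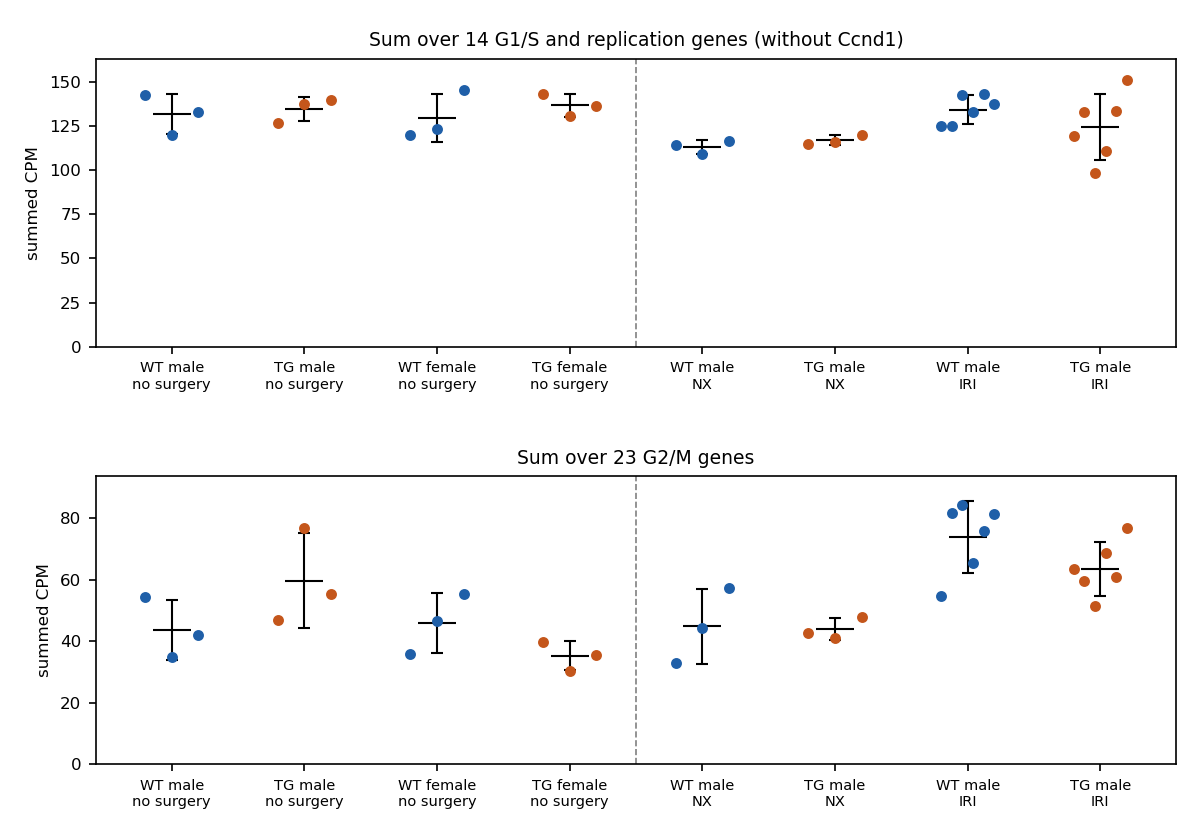
Summed expression, in CPM, of the 23 G2/M genes and of the 14 G1/S and replication genes other than Ccnd1, 1 point per library in each of the 8 groups, with the group mean and bars of 1 SD. The no-surgery libraries belong to a table scaled apart from the NX and IRI libraries. The G2/M sums of the WT IRI libraries reach 84.5 CPM and those of the TG female libraries stay at or below 39.9 CPM.

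The question of IRI against NX sets kidneys 4 hours after the injury beside kidneys after nephrectomy alone, within each genotype. The time of sampling after NX alone is not given, so injury and time since surgery cannot be told apart here. In WT, 8 of 23 G2/M genes (34.8%) rose and none fell, and 3 of 15 G1/S and replication genes (20%) rose and 1 (6.67%) fell; over all 19264 genes tested, 16.8% rose and 14.1% fell. In TG, 3 of 23 G2/M genes (13%) rose and none fell, and 3 of 15 G1/S genes (20%) rose and 1 (6.67%) fell, against 16.4% and 13% of all genes. The TG shares thus lie near or below those of all genes, and in WT the G2/M share is the one that lies furthest above. The median log2 fold change was 0.66 in WT and 0.51 in TG for the G2/M list, 0.23 and -0.02 for the G1/S list, and -0.01 in both genotypes for all genes. With upper-quartile scaling the median of all genes moved to -0.10 in WT and -0.14 in TG, and the split of all called genes changed from 3229 higher and 2723 lower to 2790 and 3931 in WT, and from 3152 and 2509 to 2488 and 4280 in TG. Genes that rose in both genotypes, also with that scaling, were Kif23, Cdc20, Kif11, Cdt1 and Pcna, and Ccnd1 fell in both.

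Kif23, the motor subunit of centralspindlin, which bundles the central spindle ahead of cytokinesis, had the largest log2 change of the 38 genes in each genotype (GRCm39 chr9:61823187-61854056). It was at 1.13, 1.36 and 1.08 CPM in the WT NX libraries and at 5.71 to 10.03 CPM (median 8.28) in the 6 WT IRI libraries. In TG it was at 2.10, 2.16 and 4.04 CPM after NX and at 5.66 to 9.82 CPM (median 8.11) after IRI. Every IRI library lay above every NX library of either genotype. The log2 fold change was 2.77 ± 0.25 (SE) in WT, a 6.83-fold difference (edgeR, adjusted p = 1.07e-07), and 1.51 ± 0.23 in TG, a 2.85-fold difference (adjusted p = 5.38e-05). Without WT IRI replicate 1 the WT value was 2.703 (adjusted p = 3.05e-07). In kidneys without surgery Kif23 stood at 2.72 to 6.24 CPM, above all 3 WT NX libraries, with no test between the tables.

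Its partner Racgap1, the GTPase-activating subunit of centralspindlin, was at 2.18, 2.38 and 1.93 CPM in WT NX and at 3.03 to 4.09 CPM in WT IRI. These groups did not overlap, and the log2 fold change was 0.71 ± 0.17 (adjusted p = 0.00284). In TG the values were 2.31, 2.24 and 2.64 CPM after NX and 2.15 to 3.16 CPM after IRI, which overlap, with a log2 difference of 0.13 ± 0.16 (adjusted p = 0.591). Of the other cytokinesis and late-mitosis genes, Prc1, which crosslinks the midzone microtubules, gave log2 differences of 0.61 in WT and 0.65 in TG (adjusted p = 0.0747 and 0.0590), and the midzone motor Kif20a gave 0.58 and 0.63 (adjusted p = 0.0981 and 0.0759). None of these 4 differences passed with edgeR. DESeq2 called Prc1 in both genotypes (adjusted p = 0.0458 in WT and 0.0349 in TG) and Kif20a in TG (0.0482), and voom called both in TG (0.0425 and 0.0437). On the other strand, exons of Rccd1 share 11.1% of the exonic bases of Prc1, and those of Cdc23 29.3% of Kif20a. In WT, Rccd1 differed by 0.604 and Cdc23 by -0.303 on the log2 scale after IRI.

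Spindle genes gave calls in both genotypes. Kif11, the motor that pushes the spindle poles apart (chr19:37364851-37410307), was at 0.927, 1.68 and 1.96 CPM in WT NX and 2.35 to 3.85 CPM (median 3.46) in WT IRI. In TG it was at 1.58, 1.22 and 2.21 CPM after NX and 2.31 to 3.5 CPM (median 3.05) after IRI. The IRI libraries lay above the NX libraries in each genotype, with log2 fold changes of 1.09 ± 0.25 (adjusted p = 0.00283) and 0.84 ± 0.25 (adjusted p = 0.0156). The TG call was lost without the unnumbered TG NX library (adjusted p = 0.0635) or without TG NX replicate 1 (0.107).

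Tpx2, which targets Aurora A to the spindle, was at 1.36, 2.20 and 2.19 CPM in WT NX and 2.38 to 4.22 CPM in WT IRI, a log2 fold change of 0.71 ± 0.26 (adjusted p = 0.0432). The groups did not overlap, but the call was lost without any of the 3 WT NX libraries or without WT IRI replicates 1, 2, 3 or 5 (adjusted p 0.0504 to 0.198). It was also lost with upper-quartile factors, no count filter, voom or only the compared groups in the fit (0.0554 to 0.0982). Tpx2 gave 0.47 ± 0.25 in TG (adjusted p = 0.186), and its kinase Aurka gave 0.42 in WT and 0.67 in TG (adjusted p = 0.282 and 0.0879). Nusap1, which binds spindle microtubules, differed by 0.27 and 0.04 (adjusted p = 0.384 and 0.907).

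The anaphase-promoting complex, which ends mitosis by marking cyclin B and securin for destruction, was represented by its activator Cdc20 and its ubiquitin-conjugating enzyme Ube2c. Cdc20 (chr4:118290098-118294549) was at 1.84, 2.60 and 3.35 CPM in WT NX and 2.69 to 6.57 CPM (median 5.18) in WT IRI, so that the lowest IRI library, the unnumbered one, lay under the highest NX library. In TG the NX libraries were at 2.05, 2.29 and 2.08 CPM and all 6 IRI libraries were above them, at 2.91 to 5.72 CPM (median 4.15). On the log2 scale it rose by 0.97 ± 0.25 in WT and 0.96 ± 0.25 in TG (adjusted p = 0.00642 and 0.00707).

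Ube2c (chr2:164611818-164620742) was at 0.556, 1.07 and 1.29 CPM in WT NX and at 1.14 to 2.68 CPM in WT IRI, which overlap. Its log2 fold change was 1.03 ± 0.36 (adjusted p = 0.0370), and the call was lost without WT NX unnumbered or replicate 1, or without WT IRI replicates 1, 2 or 5 (adjusted p 0.0552 to 0.172), and with voom (0.0976) or upper-quartile factors (0.0505). In TG, Ube2c gave 0.76 ± 0.36 (adjusted p = 0.122).

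Among the mitotic cyclins and kinases, edgeR called only cyclin B2, in WT. Ccnb2 was at 0.958, 1.41 and 1.09 CPM in WT NX and at 1.42 to 3.57 CPM (median 2.79) in WT IRI, a log2 fold change of 1.20 ± 0.30 (adjusted p = 0.00524). The groups touched without overlapping. In TG the Ccnb2 difference was 0.73 ± 0.30 (edgeR, adjusted p = 0.0713), which DESeq2 called (0.0455) and voom did not. The log2 differences in WT and TG were 0.33 and 0.63 for cyclin B1 (Ccnb1), 0.03 and 0.51 for cyclin A2 (Ccna2), 0.59 and 0.23 for their kinase Cdk1, and 0.85 and 0.45 for the mitotic kinase Plk1. None of these passed with edgeR, DESeq2 or voom, with edgeR's adjusted p from 0.0916 upward.

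Checkpoint, kinetochore and chromosome genes other than Mki67 did not pass with edgeR. The spindle checkpoint kinase-like protein Bub1b gave 0.88 ± 0.35 in WT (adjusted p = 0.0625 with edgeR and 0.0349 with DESeq2) and 0.31 ± 0.34 in TG, and its partner Bub1 gave 0.67 and 0.45. The passenger complex genes Birc5 and Aurkb gave 0.66 and 0.48 in WT, and 0.72 and 0.00 in TG. The kinetochore motor Cenpe gave -0.04 and -0.38, and Cenpf gave 0.34 and 0.35. Top2a, which untangles sister chromatids, was at 2.10, 4.80 and 7.71 CPM in WT NX and 4.67 to 8.49 CPM (median 7.56) in WT IRI, and at 4.42, 5.15 and 5.48 CPM in TG NX and 4.26 to 7.71 CPM (median 5.58) in TG IRI. The Top2a groups overlapped in each genotype, with log2 differences of 0.56 ± 0.28 and 0.21 ± 0.28 (adjusted p = 0.150 and 0.620). Without WT NX replicate 2, the highest of its group, the WT value was 1.07 (adjusted p = 0.0130).

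Mki67, the chromosome-coating protein widely used to mark cycling cells, was at 2.50, 4.22 and 3.67 CPM in WT NX and at 4.64 to 6.83 CPM (median 5.81) in WT IRI. The groups did not overlap, and the log2 fold change was 0.75 ± 0.23 (adjusted p = 0.0194). The call was lost without the unnumbered WT NX library (adjusted p = 0.117). In TG, Mki67 was at 2.64, 2.51 and 4.05 CPM after NX and 3.40 to 6.87 CPM (median 4.50) after IRI, which overlap, and the log2 difference of 0.61 ± 0.23 did not pass with edgeR (adjusted p = 0.0546). It did pass with DESeq2 (0.0325) and voom (0.0291), and with edgeR without TG NX replicate 2 (0.0230), TG IRI replicate 1 (0.0467) or TG IRI replicate 2 (0.0336).

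Of the G1/S and replication genes, the origin licensing factor Cdt1, which brings the Mcm helicase to origins, changed with the smallest p in each genotype (chr8:123294754-123300293). It was at 3.93, 3.67 and 3.67 CPM in WT NX and 5.39 to 8.92 CPM (median 7.80) in WT IRI. In TG it was at 2.76, 3.58 and 4.08 CPM after NX and 9.03 to 10.44 CPM (median 9.83) after IRI. The IRI libraries lay above the NX libraries in each genotype, and each TG IRI library lay above each WT IRI library. The log2 fold changes against NX were 1.0 ± 0.16 in WT and 1.49 ± 0.17 in TG, or 1.99-fold and 2.82-fold (adjusted p = 0.000117 and 1.43e-06).

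Cdc6, which works with Cdt1 in loading the helicase (chr11:98798627-98814766), held few reads: 2, 20 and 30 counts in the 3 WT NX libraries. These correspond to 0.0309, 0.305 and 0.483 CPM, all below the 0.804 to 1.46 CPM (median 0.958) of the WT IRI libraries. The log2 fold change in WT was 1.94 ± 0.51 (adjusted p = 0.00637). In TG, Cdc6 was at 0.415, 0.736 and 0.666 CPM after NX and 0.411 to 1.04 CPM after IRI, which overlap, with a difference of 0.32 ± 0.46 (adjusted p = 0.654).

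Pcna, the clamp that holds DNA polymerase on its template (chr2:132091082-132095234), changed little in size and with a small spread. It was at 19.9, 17.6 and 20.1 CPM in WT NX and 24.9 to 30.6 CPM (median 27.7) in WT IRI, and at 20.8, 19.9 and 20.9 CPM in TG NX and 24.2 to 30.7 CPM (median 27.6) in TG IRI. No IRI library overlapped an NX library of either genotype. The log2 fold changes were 0.52 ± 0.09 in WT and 0.41 ± 0.09 in TG, 1.44-fold and 1.33-fold (adjusted p = 0.000309 and 0.00226).

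Rrm2, the regulated subunit of ribonucleotide reductase, was at 4.32, 6.94 and 5.70 CPM in TG NX and 5.65 to 11.2 CPM (median 8.51) in TG IRI. These groups overlapped, and the log2 fold change of 0.61 ± 0.22 (adjusted p = 0.0426) was lost without TG NX unnumbered or replicate 2, or without TG IRI unnumbered or replicates 1, 3, 4 or 5 (adjusted p 0.0502 to 0.217). In WT, Rrm2 was at 4.17, 6.92 and 7.95 CPM after NX and 6.58 to 10.5 CPM after IRI, a log2 difference of 0.50 ± 0.22 (adjusted p = 0.0923). Thymidylate synthase (Tyms) gave 0.18 in WT and -0.35 in TG, and neither passed (adjusted p = 0.405 and 0.0907).

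Cyclin D1 was the 1 member that fell (chr7:144483668-144493662). Ccnd1 was at 232, 216 and 196 CPM in WT NX and 147 to 192 CPM (median 172) in WT IRI, with no overlap. In TG it was at 221, 181 and 198 CPM after NX and 143 to 208 CPM (median 156) after IRI, and TG IRI replicate 5 overlapped the NX range. On the log2 scale the differences were -0.32 ± 0.11 and -0.30 ± 0.11 (adjusted p = 0.0277 and 0.0411). Exons of LTO1 on the other strand share 23.4% of the exonic bases of Ccnd1, and LTO1 differed by -0.424 in WT. The WT call was lost without WT NX unnumbered or replicate 1, or WT IRI replicates 2, 3 or 4 (adjusted p 0.0569 to 0.141), and the TG call without TG NX unnumbered or replicate 2, or TG IRI unnumbered or replicates 1 to 4 (0.0657 to 0.217).

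The helicase genes Mcm2 to Mcm7 did not pass with edgeR or DESeq2 in either genotype, and voom called Mcm3 in TG (log2 fold change 0.45, adjusted p = 0.0440). Their log2 differences ran from -0.18 (Mcm5) to 0.38 (Mcm6) in WT and from -0.35 (Mcm6) to 0.39 (Mcm3) in TG. For Mcm2 the interval of 2 standard errors around the WT difference was -0.22 to 0.34, and for Mcm7 it was -0.41 to 0.07, so changes of the size of Cdt1 lie outside both. Mcm6 was far more variable than the rest of the helicase: its highest library was 10.3 times its lowest over the 30 libraries, against 1.74 for Mcm2, 2.30 for Mcm3, 2.14 for Mcm4, 1.92 for Mcm5 and 2.27 for Mcm7. Within the TG IRI group Mcm6 (chr1:128259327-128287401) ranged from 3.26 to 33.7 CPM. E2f1, the E2F factor of the G1/S switch, gave 0.04 and -0.09, and the cyclin E genes gave 0.36 and 0.80 (Ccne1) and 0.23 and 0.15 (Ccne2), none of which passed with edgeR, DESeq2 or voom.

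**Figure D2:**
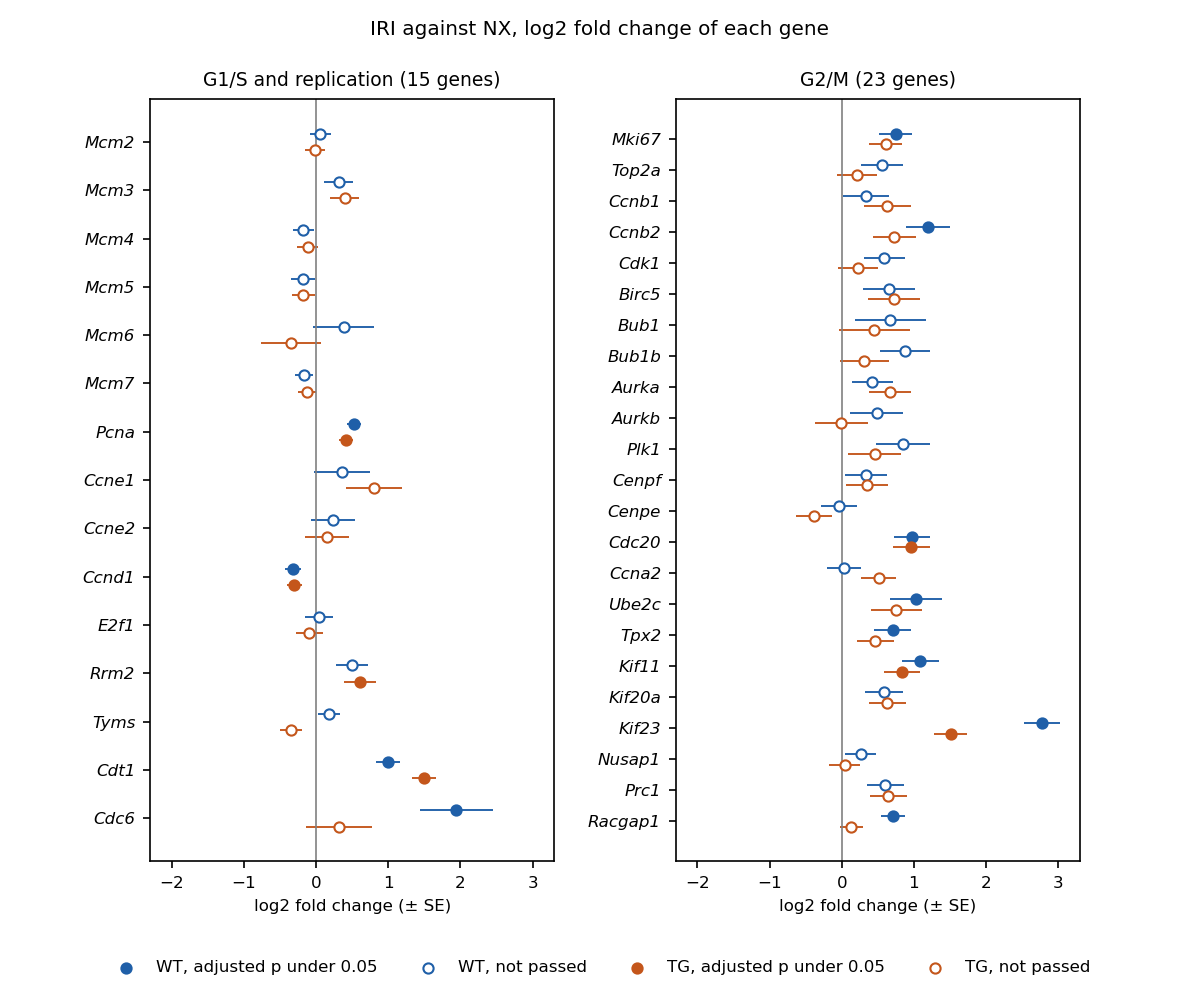
Log2 fold change of IRI against NX for each of the 38 genes, WT and TG side by side, with bars of 1 standard error and filled points for adjusted p under 0.05 (edgeR). Kif23 stands furthest to the right in WT at 2.77, and Ccnd1 is the 1 filled point left of 0 in each genotype.

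**Figure D3:**
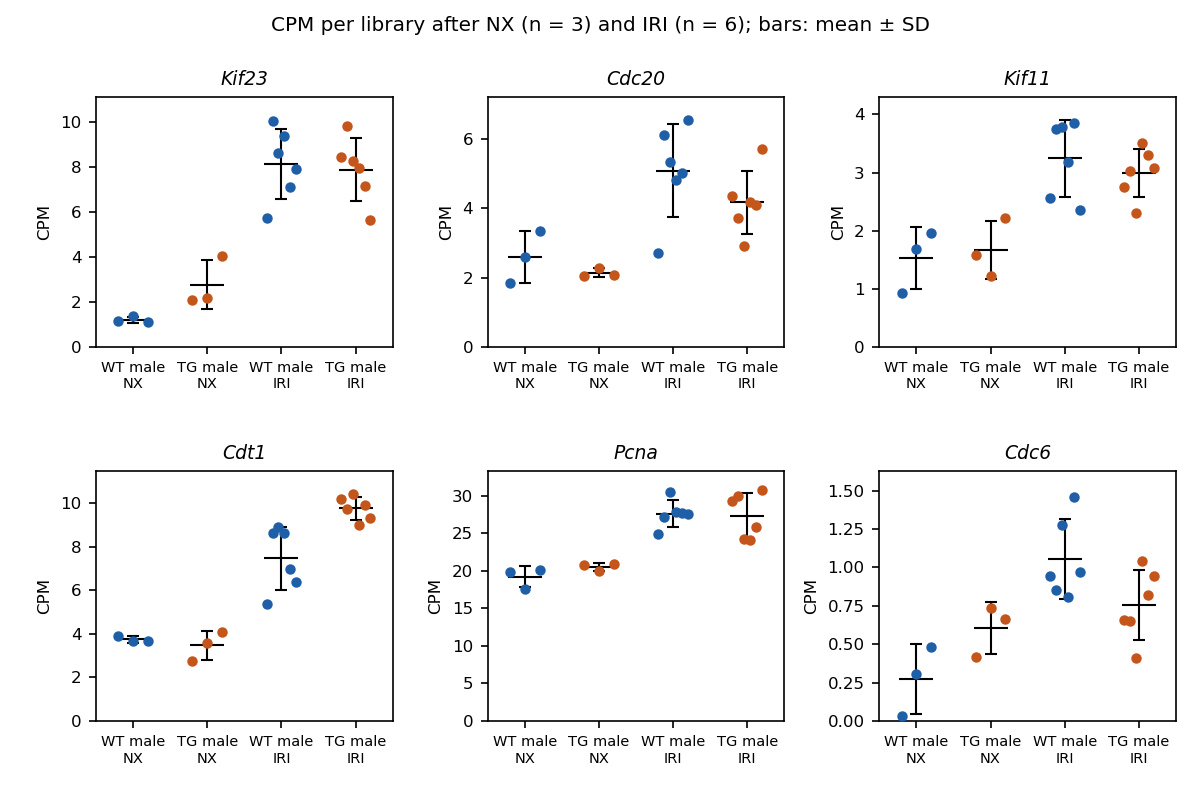
CPM of Kif23, Cdc20, Kif11, Cdt1, Pcna and Cdc6 in each library after NX (n = 3 per genotype) and IRI (n = 6), 1 point per library, with the group mean and bars of 1 SD. Kif23, Kif11, Cdt1 and Pcna show no IRI library within the NX range of its genotype, and the Cdc6 points of TG overlap.

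Markers of other cells moved in the same contrast. All 6 tested neutrophil markers were higher after IRI in each genotype, with sums of 0.244 to 0.989 CPM in WT NX against 26.1 to 98.3 in WT IRI, and 0.496 to 0.853 in TG NX against 5.75 to 43.2 in TG IRI; Ly6g was at 0 in 23 of 30 libraries. Of 6 tested marrow and red cell markers, 5 were higher and 1 lower in WT and 3 higher in TG, with sums of 39.0 to 121 CPM in WT NX, 110 to 1273 in WT IRI, 7.25 to 22.2 in TG NX and 30.9 to 147 in TG IRI. Of the granule genes that mark dividing marrow precursors, Elane, Mpo and Ctsg were at 0 in 28, 28 and 29 of 30 libraries, and Prtn3 was at 0 in 13 and held 89 counts over all 30. Of 8 proximal tubule markers 3 were lower after IRI in each genotype, and 3 of 7 fat cell markers were lower in WT (median log2 difference -3.47) and none in TG. The fat cell sums were 710.3, 15.3 and 18.1 CPM in WT NX and 44.6 to 82.65 CPM in WT IRI. The lower values in WT thus rest on the unnumbered NX library, and the other WT NX libraries lay below every WT IRI library. The part of all these cell types in the changes of the 38 genes was not tested. Without the unnumbered WT NX library, which had the high fat cell markers and the lowest value of its group for 18 of 23 G2/M genes, 5 G2/M genes rose in WT instead of 8. Without WT IRI replicate 1, 6 did: Ube2c and Tpx2 no longer passed (adjusted p = 0.0552 and 0.0527), and the other 10 WT calls passed. No member's WT log2 fold change moved by more than 0.115 in that fit. Over all genes, 2976 of 20025 rose in WT without the unnumbered WT NX library and 3070 of 19191 without WT IRI replicate 1. With all libraries it was 3229 of 19264.

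Genes of the same pathway outside the 38 were read from further lists. The lists were chosen with earlier results of these data known, so their counts and medians do not rank them against each other. Over all genes tested, 16.8% rose and 14.1% fell in WT, and 16.4% and 13% in TG. Of 21 tested cell cycle inhibitors and stress brakes, 15 rose and 1 fell in WT and 14 rose and 2 fell in TG, with median log2 fold changes of 1.97 and 1.40. Cdkn1a (p21), which blocks the cyclin-dependent kinases, was at 4.51 ± 2.67 CPM (SD, n = 3) in WT NX and 109 ± 14.3 CPM (n = 6) in WT IRI, a log2 fold change of 4.59 ± 0.26 (edgeR, adjusted p = 1.83e-10), and gave 4.82 in TG (adjusted p = 1.29e-10). In WT the other leading genes were Btg2 (4.46), Plk2 (3.49) and Gadd45b (5.02), and in TG they were Btg2 (3.73), Gadd45b (3.99) and Btg3 (2.19), all of them known brakes on proliferation or stress genes. Myc, a growth-promoting transcription factor, went from 3.85 ± 1.23 CPM (SD, n = 3) to 64.0 ± 18.1 CPM (n = 6) in WT (log2 fold change 4.05 ± 0.26, adjusted p = 7.44e-10) and rose by 4.58 in TG (adjusted p = 2.14e-10).

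The counts of the remaining lists stand beside the same shares of all genes. Among 48 other replication genes, 5 rose and 4 fell in WT and 5 rose and 5 fell in TG, with medians of -0.02 and -0.06. Pola2, a subunit of the primase polymerase, rose in both (1.24 and 0.95), Dbf4, the activator of the Cdc7 kinase, rose in WT (0.99), and the flap endonuclease Fen1 fell in WT (-1.83). The clamp loader Rfc2 also fell in WT (-0.34), and in TG the replisome subunit Gins3 (-1.26), the single-strand binding protein Rpa1 (-0.32) and the polymerase delta subunit Pold1 (-0.60) fell. Among 49 other mitosis genes, 16 rose and none fell in WT and 7 rose and 2 fell in TG, with medians of 0.63 and 0.27. Those with the smallest p in WT were the kinetochore gene Ndc80 (2.36), Ckap2 (1.43), Hmmr (1.24) and Pbk (0.87), and in TG Ckap2 (1.47), Iqgap3 (1.33), the condensin Smc2 (-0.73) and the cytokinesis gene Anln (0.95). Of 20 G1 cyclins, kinases and E2F family genes, 2 rose and 4 fell in WT and 4 rose and 5 fell in TG. In WT these were led by Myc, Mycn (1.42), the E2F partner Tfdp1 (-0.30) and the pocket protein Rbl2 (-0.34), and in TG by Myc, Rbl2 (-0.64), Tfdp1 (-0.47) and Tfdp2 (-0.51). Without the unnumbered WT NX library the WT calls of Pbk, Mycn, Tfdp1 and Rbl2 were lost (adjusted p 0.0589 to 0.120), without WT NX replicate 2 those of Mycn and Rbl2 (0.0569 and 0.0920), and without TG NX replicate 1 that of Anln in TG (0.118).

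The comparison of TG with WT asks whether the transgene goes with another level of these genes at the same state of the kidney. By edgeR no member passed in no-surgery males, where 0.00523% of 19126 genes were called, in no-surgery females (0.0418%), after NX (0.0117% of 17100 genes) or after IRI (0.0701% of 17111 genes). DESeq2 and limma voom also called no member in any of the 4 comparisons. At an unadjusted p under 0.05, edgeR gave 5 of the 38 genes in males, 2 in females, 2 after NX and 2 after IRI, where 5.22%, 9.09%, 6.77% and 14.1% of all genes lay under it. The median log2 difference of the G2/M list was 0.40 in males, -0.42 in females, 0.00 after NX and -0.25 after IRI, where all 23 values lay below 0 (22 of 23, with a median of -0.18, without WT IRI replicate 1), and that of the G1/S list was 0.07, 0.00, -0.11 and -0.09. The median over all genes lay between -0.01 and 0.00 in each of these comparisons. After IRI the values of all 6 tested neutrophil markers (median -1.31) and all 6 tested marrow and red cell markers (median -2.88) also lay below 0, as did 6 of 8 macrophage markers (median -0.42). Lists of kidney cells leaned the same way: all 6 loop and distal tubule markers (median -0.31), all 5 podocyte markers (-0.29) and 6 of 7 endothelial markers (-0.29). So did 5 of 6 collecting duct markers (-0.17), 7 of 8 proximal tubule markers (-0.13) and 5 of 7 fibroblast and pericyte markers (-0.25). All 6 tested lymphocyte markers (-0.96) lay below 0, and 2 of 3 tested fat cell markers lay above it. None of these markers passed, and their part in the G2/M values was not tested.

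Mki67 differed between TG and WT by 0.77 ± 0.37 in no-surgery males, -0.69 ± 0.37 in females, -0.18 ± 0.28 after NX and -0.32 ± 0.17 after IRI on the log2 scale (adjusted p = 0.916, 0.618, 0.911 and 0.413). Top2a differed by 0.99 ± 0.34, -0.42 ± 0.34, 0.04 ± 0.38 and -0.31 ± 0.17 (adjusted p = 0.916, 0.780, 0.990 and 0.420). In both genes the TG male libraries without surgery overlapped the WT male libraries. Pcna differed by at most 0.09 in size, with intervals of 2 standard errors from -0.17 to 0.14 in males and from -0.18 to 0.13 after IRI. Ccnd1 differed by 0.28 ± 0.12 in males and -0.37 ± 0.12 in females, with no overlap of the libraries in either sex (adjusted p = 0.916 and 0.340), and by -0.11 ± 0.11 and -0.09 ± 0.09 after NX and after IRI.

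The smallest unadjusted p among the members was that of Kif23 after NX, where all TG libraries lay above all WT libraries and the log2 difference was 1.21 ± 0.32 (unadjusted p = 0.00400, adjusted p = 0.730). After IRI, Kif23 differed by -0.05 ± 0.15. Racgap1 after IRI differed by -0.44 ± 0.14 (unadjusted p = 0.00587, adjusted p = 0.217) and Cdt1 by 0.38 ± 0.12 (unadjusted p = 0.00666, adjusted p = 0.226). Without WT IRI replicate 1 these were -0.46 and 0.42 (adjusted p = 0.220 and 0.196), Mki67 was -0.36 and Top2a -0.29, and no member passed. Of the related lists, only Plk2, a stress-induced kinase, passed between the genotypes, after IRI: 56.1 ± 9.2 CPM (SD, n = 6) in TG against 85.3 ± 7.9 CPM (n = 6) in WT, a log2 fold change of -0.62 ± 0.10 (adjusted p = 0.0435). That call was lost without WT IRI unnumbered or replicates 1, 4 or 5, or TG IRI unnumbered or replicates 2 to 5 (adjusted p 0.0551 to 0.118). Cdkn1a and Myc did not pass between genotypes in any state.

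In the other lists with no call between genotypes, the gene with the smallest p of its list is given here. In males these were Cdc25a (0.20), the G2 transcription factor Foxm1 (1.11 ± 0.33), Skp2 (0.32) and Sfn (0.46), all at an adjusted p of 0.916. In females they were Pold1 (0.25), Ect2 (0.52), E2f2 (-0.86 ± 0.18) and Ccng2 (0.41 ± 0.08), the latter 2 at an adjusted p of 0.127. DESeq2 and voom called both E2f2 (adjusted p = 0.00152 and 0.0285) and Ccng2 (0.00336 and 0.0355). After NX they were Orc2 (0.25), Ndc80 (1.24), Ccnd2 (-0.36) and Btg1 (0.39), and after IRI Pole (-0.49), Spc25 (-0.34) and E2f3 (0.33), with adjusted p of 0.236 and above.

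The difference of the IRI response between genotypes was tested as an interaction, which no gene of 19264 passed by edgeR (0%). The largest interaction among the members was Kif23, with a log2 fold change in TG minus that in WT of -1.26 ± 0.31 (unadjusted p = 0.000692, adjusted p = 0.376). DESeq2 gave -1.28 with an adjusted p of 0.0397, the 1 member it called, and voom called none. In the libraries, this difference sits in the NX groups, where Kif23 was at 1.08 to 1.36 CPM in WT and 2.10 to 4.04 CPM in TG, while the IRI medians of 8.28 and 8.11 CPM lay close together. Racgap1, Cdt1 and Cdc6 gave interactions of -0.58 ± 0.23, 0.50 ± 0.22 and -1.62 ± 0.66 (adjusted p = 0.456, 0.490 and 0.467). Without WT IRI replicate 1 the Kif23 interaction was -1.19 (adjusted p = 0.351), no member passed, and no member's value moved by more than 0.115. The passing of Racgap1, Ccnb2, Mki67, Tpx2, Ube2c and Cdc6 in WT and not in TG is therefore not shown to be a difference between the genotypes. In the related lists, the genes with the smallest p for this interaction were Pold1, Ndc80, Cdk6 and Plk2. Of these, DESeq2 called Plk2 (-0.94, adjusted p = 0.0124).

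Females were compared with males without surgery, within each genotype. In WT, 1 of 15 G1/S genes was higher and 1 lower (6.67% each), and 1 of 23 G2/M genes was higher (4.35%) and 2 lower (8.7%), against 10.1% higher and 11.3% lower over all 19126 genes. In TG, 2 of 15 G1/S genes (13.3%) and 4 of 23 G2/M genes (17.4%) were lower in females and none of either list was higher, against 9.87% higher and 11.3% lower over all genes. Of these shares, the 2 of genes lower in TG females exceeded that of all genes, and the others lay below. The median log2 difference of the G2/M list was -0.03 in WT and -0.82 in TG, that of the G1/S list 0.17 and -0.15, and that of all genes 0.03 and 0.02.

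Nusap1 and Cenpe were lower in females of both genotypes. Nusap1 (chr2:119448779-119481725) was at 3.97, 3.27 and 5.17 CPM in WT males and 2.56, 1.81 and 2.51 CPM in WT females, and at 4.75, 5.42 and 6.14 CPM in TG males and 1.81, 1.44 and 1.89 CPM in TG females. Every female library lay below every male library. The log2 fold changes, female minus male, were -0.85 ± 0.21 in WT (adjusted p = 0.0129) and -1.66 ± 0.22 in TG (adjusted p = 0.00019), and the WT call was lost without WT male replicate 2 (0.0527) or WT female replicate 1 (0.0600). The exons of Nusap1 share 4.24% of their bases with Oip5 on the other strand, which was at a mean of 0.365 CPM in these libraries. Oip5 differed by -1.535 on the log2 scale between the sexes in WT.

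Cenpe, the kinetochore motor that carries chromosomes to the spindle equator (chr3:134918298-134979372), was at 2.65, 4.11 and 2.63 CPM in WT males and 1.13, 1.02 and 0.665 CPM in WT females. In TG it was at 3.53, 2.75 and 2.89 CPM in males and 1.51, 1.39 and 1.53 CPM in females, again with every female library below every male library. The log2 fold changes were -1.74 ± 0.25 in WT, or 3.34-fold lower (adjusted p = 0.000372), and -1.05 ± 0.25 in TG, or 2.07-fold lower (adjusted p = 0.00905). No library left out ended either call.

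Ube2c went the other way. It was at 1.36, 0.921 and 0.411 CPM in WT males and 3.21, 2.97 and 5.12 CPM in WT females, a log2 fold change of 2.06 ± 0.41 (adjusted p = 0.00342). In TG it was at 0.722, 1.72 and 1.41 CPM in males and 3.02, 2.01 and 2.42 CPM in females, which do not overlap either, with a difference of 0.95 ± 0.40 that did not pass (adjusted p = 0.117). Tnnc2 shares 22.8% of the exonic bases of Ube2c on the other strand and held almost no reads.

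Ccnd1 was higher in WT females, at 238, 234 and 324 CPM against 179, 222 and 180 CPM in WT males (log2 fold change 0.45 ± 0.12, adjusted p = 0.0160). The call was lost without WT male unnumbered or replicate 2, or without WT female replicate 2 (adjusted p 0.0577 to 0.0687). In TG the males, at 228, 227 and 248 CPM, lay above the females, at 212, 200 and 202 CPM, and the difference of -0.19 ± 0.12 did not pass (adjusted p = 0.285). Exons of LTO1 cover 23.4% of the exonic bases of Ccnd1 on the other strand, and reads of the pair cannot be told apart without a strand setting, which is not given in the sources used here.

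The helicase subunit Mcm7 (chr5:138162845-138170684), shown above with its E2F words, was lower in females of both genotypes. It was at 23.8, 20.6 and 23.9 CPM in WT males and 17.8, 18.2 and 18.8 CPM in WT females, and at 23.6, 23.5 and 22.1 CPM in TG males and 20.3, 19.3 and 17.4 CPM in TG females. The sexes did not overlap in either genotype. The log2 fold changes were -0.32 ± 0.09 (adjusted p = 0.0200) and -0.28 ± 0.09 (adjusted p = 0.0366). The WT call was lost without WT male unnumbered or replicate 2, or WT female unnumbered or replicate 1 (adjusted p 0.0614 to 0.0814), and the TG call without any TG male library or TG female replicates 1 or 2 (0.0550 to 0.169). On the other strand, exons of Ap4m1 and Cops6 share 7.25% and 1.45% of the exonic bases of Mcm7. These 2 genes were at means of 10.7 and 100 CPM without surgery, with log2 differences of -0.227 and -0.14 between the sexes in WT.

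The remaining edgeR calls were in TG alone. DESeq2 also called Mki67, Birc5, Ccnb1 and Cenpf lower in TG females (adjusted p = 0.0170, 0.0498, 0.0287 and 0.0232), 8 G2/M genes in all against 4 with edgeR. Over all genes, DESeq2 called 2588 of 19116 lower in TG females, and edgeR 2166 of 19126. Top2a was at 3.97, 9.12 and 5.65 CPM in TG males and 3.45, 2.72 and 2.45 CPM in TG females (log2 fold change -1.12 ± 0.34, adjusted p = 0.0321). Kif20a was at 1.87, 3.29 and 2.62 CPM in males and 1.38, 1.10 and 1.29 CPM in females (-1.04 ± 0.26, adjusted p = 0.0124), and E2f1 was at 4.30, 4.58 and 3.02 CPM and 2.41, 2.24 and 2.61 CPM (-0.71 ± 0.24, adjusted p = 0.0491). The sexes did not overlap in any of these 3 genes. Exons of Cdc23 on the other strand cover 29.3% of the exonic bases of Kif20a. Cdc23 was at a mean of 27.4 CPM without surgery, well above Kif20a, and differed by -0.008 on the log2 scale between the sexes in WT. Leaving out 1 library ended each call: for Top2a TG male replicate 1 or 2, or TG female replicate 1 or 2 (adjusted p 0.0545 to 0.141); for Kif20a TG male replicate 1 (0.0519) or TG female replicate 1 (0.0578); and for E2f1 any TG library but male replicate 2 (0.0871 to 0.144). TG male replicate 1, which had high fat cell markers, was the highest of its group for 18 of 23 G2/M genes. Without it the count of G2/M genes lower in TG females was 2 instead of 4, and without TG female replicate 1 it was also 2. Over all genes, 1956 of 19787 were lower in TG females without TG male replicate 1. Without TG female replicate 1 it was 1543 of 19813.

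Mki67 did not pass with edgeR in either genotype. It was at 4.30, 1.27 and 2.71 CPM in WT males and 3.21, 3.62 and 4.16 CPM in WT females, which overlap (log2 difference 0.41 ± 0.37, adjusted p = 0.482). In TG the females, at 2.81, 1.49 and 2.48 CPM, lay below the males, at 3.94, 6.20 and 3.95 CPM, with a difference of -1.05 ± 0.37 (adjusted p = 0.0619). That difference passed with DESeq2 (0.0170), voom (0.0370), no count filter (0.0166), only the compared groups in the fit (0.0393) and the replicate block (0.0475). Top2a overlapped between the sexes in WT, at 4.07, 1.97 and 3.41 CPM in males and 2.56, 4.57 and 4.42 CPM in females. Pcna was at 22.4 to 25.0 CPM in the 6 male libraries and 26.0 to 29.0 CPM in the 6 female libraries, without overlap, and its log2 differences of 0.17 ± 0.08 in WT and 0.19 ± 0.08 in TG did not pass (adjusted p = 0.148 and 0.104).

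**Figure D4:**
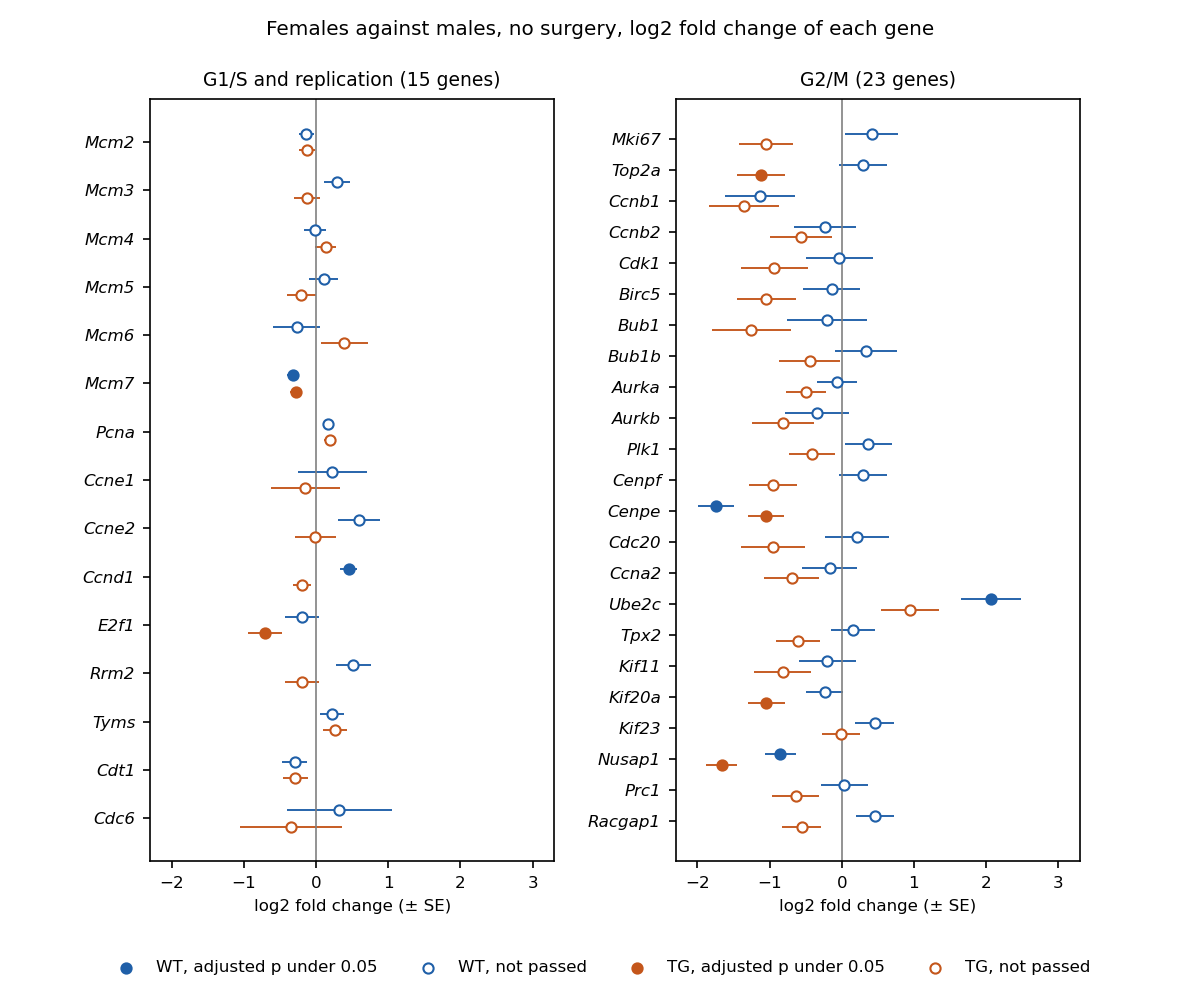
Log2 fold change of females against males without surgery for each of the 38 genes, WT and TG side by side, with bars of 1 standard error and filled points for adjusted p under 0.05 (edgeR). Ube2c is furthest to the right in WT at 2.06, and Nusap1 and Cenpe are filled left of 0 in both genotypes.

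**Figure D5:**
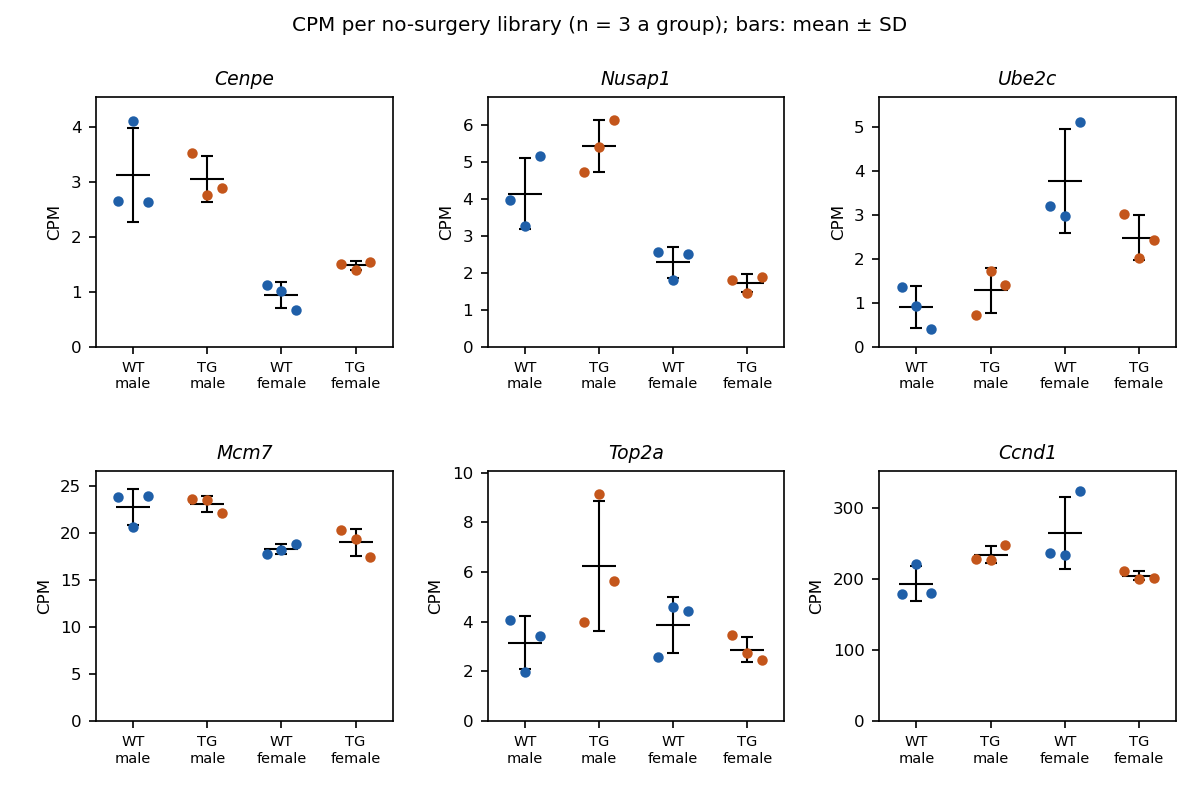
CPM of Cenpe, Nusap1, Ube2c, Mcm7, Top2a and Ccnd1 in each no-surgery library (n = 3 per group), 1 point per library, with the group mean and bars of 1 SD. The Nusap1 and Cenpe points of all 6 female libraries lie below those of all 6 male libraries.

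No member passed the sex by genotype interaction by edgeR, where 0.00523% of 19126 genes were called. The G2/M list had a median interaction of -0.79 (TG minus WT), with 22 of 23 genes below 0 and 6 at an unadjusted p under 0.05, beside a median of 0.00 and a share of 8.58% for all genes. Ccnd1 had the smallest p, at -0.65 ± 0.17 (unadjusted p = 0.00209, adjusted p = 0.381), and DESeq2 called it, as its 1 member, at an adjusted p of 0.0458. Mki67 and Top2a gave -1.46 ± 0.52 and -1.41 ± 0.48 (adjusted p = 0.471 and 0.462), so their sex differences are not shown to depend on genotype. The related lists had no edgeR call in this interaction, and their genes with the smallest p were Dbf4, Foxm1, E2f2 and Ccng2. DESeq2 called Foxm1 (-1.80, adjusted p = 0.0340), E2f2 (-1.15, 0.00566) and Ccng2 (0.54, 0.0153).

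Cell type markers also differed between the sexes. Of 6 tested loop and distal tubule markers, 5 were higher in WT females and 6 in TG females, with sums of 4804 to 6464 CPM in WT males, 8295 to 9138 in WT females, 4887 to 5337 in TG males and 8072 to 8584 in TG females. Collecting duct markers were higher in females for 6 of 6 genes in WT and 4 of 6 in TG, and podocyte markers for 4 of 5 in each genotype. Of 8 tested proximal tubule markers, 2 were higher and 3 lower in females of each genotype. The part of cell makeup in the sex differences of the 38 genes was not tested.

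Related lists also gave calls between the sexes. Over all genes, 10.1% were higher and 11.3% lower in females in WT, and 9.87% and 11.3% in TG. Of 48 other replication genes, 1 was higher and 4 lower in females of each genotype, and the helicase activator Mcm10 was among the lower genes in both (-0.98 in WT and -0.83 in TG). Of 49 other mitosis genes, 1 was higher and 2 lower in WT and 3 were higher and 3 lower in TG, where the centrosome kinase Nek2 was lower (-1.74 and -1.93) and the kinetochore gene Spc25 higher (0.55 and 0.60) in both. Among 20 G1 genes, the kinase Cdk6 was lower in both genotypes (-0.78 and -0.52), with 1 higher and 2 lower in WT and 1 higher and 4 lower in TG. Among 21 inhibitors, 3 were higher and 2 lower in WT and 4 higher and 2 lower in TG; Wee1, the kinase that holds Cdk1 inactive, was higher in both (0.91 and 0.91) and Ccng1 lower in both (-0.35 and -0.50). Further called genes in WT were Pold2 (0.41) and Rfc4 (-0.48) among the replication genes, Smc4 (-0.30) among the mitosis genes, Ccnd3 (0.36) and E2f5 (-0.37) in the G1 list, and Cdkn1c (0.98) and Sfn (0.59) among the inhibitors. In TG they were Pold1 (0.40) and Dbf4 (-0.80), Ect2 (1.01) and Cdc25b (0.58), E2f3 (-0.87), E2f2 (-0.86) and E2f5 (-0.48), and Cdkn2c (-0.74) and Cdkn1b (0.30). Each of the 12 libraries, left out, ended 1 or more of these calls: those of Pold2, Rfc4, Smc4, Spc25, E2f5, Ccng1 and Sfn in WT (adjusted p 0.0508 to 0.139) and of Pold1, Dbf4, Cdc25b, Spc25, E2f5 and Cdkn1b in TG (0.0567 to 0.115). Cdkn1a and Myc did not pass between the sexes.

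Within groups, the G2/M genes tended to be high or low in the same library. The unnumbered WT male library without surgery was highest of its group for 17 of 23 genes and replicate 1 lowest for 14. WT female unnumbered was lowest for 18 and replicate 2 highest for 15. After NX, WT replicate 2 was highest for 16 of 23. Among the IRI libraries, WT unnumbered was lowest for 15, TG replicate 5 highest for 12 and TG replicate 2 lowest for 12. The members thus share their library-to-library spread, and 23 genes are not 23 separate measurements of a condition.

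Across all 30 libraries the steadiest member within groups was Pcna, with a median coefficient of variation of 6.09%, and Cdc6 was the least steady at 45.2%. The members that edgeR called in no comparison ranged as follows over the 30 libraries. In the G1/S list, Mcm2 ran from 9.46 to 16.5 CPM, Mcm3 from 2.99 to 6.88, Mcm4 from 5.71 to 12.2, Mcm5 from 4.48 to 8.57 and Mcm6 from 3.26 to 33.7. Tyms ran from 7.61 to 16.03 CPM, Ccne1 from 0.332 to 1.41 and Ccne2 from 0.672 to 3.03. In the G2/M list, the kinases Aurka, Aurkb, Bub1, Plk1 and Cdk1 ran from 1.14 to 4.46, 0.246 to 1.96, 0.0917 to 1.58, 0.513 to 2.97 and 0.745 to 3.63 CPM. The cyclins Ccna2 and Ccnb1 ran from 1.36 to 4.25 and 0.307 to 3.09 CPM. Birc5 ran from 0.454 to 2.66 CPM, Bub1b from 0.492 to 2.85, Cenpf from 0.986 to 3.17 and Prc1 from 1.27 to 3.81.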

How the data were processed

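Values are read counts per gene deposited by the authors for whole kidney, in a table of 12 libraries without surgery and another of 18 libraries after surgery. Per the submitters' processing notes, reads were handled with fastp 0.23.2, STAR 2.7.0 and featureCounts 2.0.3, and per the file headers the annotation was Ensembl release 112 on GRCm39 with an added EGFP entry. A strand setting is not given in the sources used here, so reads of overlapping genes cannot be told apart. Only 37.35% to 41.94% of counts of at least 10 were odd, and halved counts were tried as an alternative.

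Each table was fitted apart with edgeR 4.0.16 (R 4.3.3): TMM factors, filterByExpr, quasi-likelihood tests, two-sided, and Benjamini-Hochberg adjustment over all genes tested at 0.05. TG was compared with WT after NX in those 6 libraries and after IRI in those 12, the no-surgery comparisons used all 12 no-surgery libraries, and IRI against NX and its interaction used all 18. CPM are counts per 1000000 of TMM-scaled library size. Alternatives were DESeq2 1.42.0, voom of limma 3.58.1 with sample weights, upper-quartile or RLE scaling, a fit of every counted gene, a replicate block, other libraries in the fit and each library left out. The fits were also run on simulated counts drawn for each gene apart, and the outcome is not given and is used for no result here. No 2 libraries of a group were copies (48 pairs, chi-square per degree of freedom at least 18.6).

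The 38 genes and all lists were chosen with earlier results of these data known. Named are all 38 genes, with every library's values for up to 10 called genes per comparison by smallest p and always for Ccnd1, Mki67, Top2a and Pcna; from related lists, up to 4 called genes by smallest p, and always Cdkn1a and Myc. Where a related list had no call, the gene with the smallest p is named. A called gene of a related list is not reported here.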

Additional observations from a re-analysis of the deposited data

Results flagged for a closer look

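In 6 of 76 sets of 6 libraries examined, the highest library stood far from the other 5 of its group, where chance gives about 1 in 20. All 6 were in the TG IRI group. In TG IRI replicate 5, Mcm3 was at 5.34 CPM (the others 4.27 to 4.66), Ccnd1 at 208.1 CPM (142.9 to 158.6), Ccnb2 at 4.16 CPM (1.76 to 2.26), Bub1 at 1.28 CPM (0.538 to 0.810) and Plk1 at 2.48 CPM (1.01 to 1.46). In TG IRI replicate 3, Bub1b was at 2.40 CPM (0.759 to 1.20). TG IRI replicate 5 was also the highest of its group for 12 of 23 G2/M genes.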

How the results depend on the processing

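Of the 40 counts of members, 28 were 0 in the reported fit, and most of these stayed at 0. Of 692 values of the counts under the alternatives, 50 moved by more than 1.5 times or to or from 0. That share is low in part because it includes the counts that stayed at 0. No called gene reversed direction. No member passed between genotypes under any alternative, and of 2772 gene values 2589 kept their call; the cause of the changes was not tested. After IRI in WT, the 8 G2/M genes that rose ranged from 5 to 11 with 1 library left out and were 5 with the replicate block; the G1/S gene that fell ranged from 0 to 1 and was 0 with no count filter. In TG, the 3 G2/M genes that rose ranged from 2 to 6 and were 7 with DESeq2 and 6 with voom (5 without TG IRI replicate 1, 6 without TG IRI replicate 2), and the G1/S gene that fell ranged from 0 to 1 and was 2 with upper-quartile factors. Over all genes, 2920 of 19264 rose in WT with the replicate block. In TG, 3491 of 19223 rose with DESeq2 and 3507 of 19264 with voom. Between the sexes in TG, the 2 lower G1/S genes ranged from 0 to 1, were 0 with upper-quartile factors or no count filter, and 1 with voom, the replicate block or only the compared groups in the fit; the 4 lower G2/M genes ranged from 2 to 5 and were 8 with DESeq2. In WT, the higher G1/S gene ranged from 0 to 1 and was 0 with only the compared groups in the fit, the lower G1/S gene ranged from 0 to 1 and was 0 with no count filter, and the 2 lower G2/M genes ranged from 1 to 2. DESeq2 called 1 G1/S gene lower in the sex by genotype interaction and 1 G2/M gene lower in the genotype by injury interaction, where edgeR called 0.

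Without the 2 no-surgery libraries with the highest fat cell genes, an alternative chosen after seeing the data, the genes lower in females numbered 0 (G1/S) and 2 (G2/M) in TG and 0 and 1 in WT. Over all 19623 genes of that fit, 1901 were lower in TG females and 1799 in WT females. Over all genes, the 12 calls between genotypes after IRI were 43 with no count filter, 363 with DESeq2, 22 with all 18 libraries in the fit, 5 with the replicate block and 0 to 109 with 1 library left out. The 2 calls after NX were 127, 45, 0, 1 and 2 to 15 in the same order, and the 1 call in males was 15 with no count filter, 14 with DESeq2, 0 with voom and 2 without the fat cell libraries. The 8 calls in females were 107, 221, 73 and 23 in that order, 14 with halved counts, 19 with upper-quartile factors, 40 with the replicate block and 1 to 22 with 1 library left out. The sex by genotype interaction, with 1 call, gave 37 with no count filter, 81 with DESeq2, 4 with voom and 11 with the replicate block, and the genotype by injury interaction, with 0, gave 41 with DESeq2.

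Same-numbered libraries of different groups correlated by -0.0347 to 0.309 in their deviations from the group means, and in no set of groups was every correlation over 0.1, so the numbers were not taken as pairing. Between WT males and WT females, and between WT NX and WT IRI, each same-numbered library was nonetheless the best match. The replicate block took all calls between the sexes from 4077 to 4672 in WT and from 4054 to 4560 in TG. With the replicate block, Mki67, Ube2c and Tpx2 in WT after IRI, Rrm2 in TG after IRI and E2f1 between the TG sexes no longer passed (adjusted p 0.0617, 0.0970, 0.0733, 0.0505 and 0.0538), and Mki67 between the TG sexes did (0.0475). Depth limits the lowest genes, such as Cdc6 with 2 to 30 counts in WT NX.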
